A study of Arabidopsis thaliana with 9 samples.

Results

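The genes described here are 73 genes of Arabidopsis thaliana roots that were higher than in wild type when the transcription factor ERF13 was expressed from the 35S promoter, and lower than in wild type in the line titled erf13-3. They were chosen from the measured values, by conditions on the FPKM (fragments per kilobase of gene, scaled to library size, so that levels of genes can be compared) in each genotype, averaged over its libraries. The 35S:ERF13:MYC mean had to be at least 1 FPKM and at least 2 times the WT mean, the erf13-3 mean had to be at most 0.5 of the WT mean, and the libraries of the 3 genotypes were not allowed to overlap. Of 24140 genes with a value in any library, 78 met the rule, and 5 of these were left out by name (RBOHB, UGT73B5, LOX1, PAD3 and KCS3). CYP81F2, which was also named to be left out, did not meet the rule. Its highest erf13-3 library and its lowest WT library were equal at 0.37 FPKM, and equal values were taken as overlap. The 73 members were 0.302% of the genes with a value, and the mirrored rule (lower in 35S:ERF13:MYC, higher in erf13-3) took 162 genes, beside 626 genes (3.18% of those tested) called lower in 35S:ERF13:MYC and higher in erf13-3. Because the values themselves chose the members, their levels and folds are a description and carry no test.

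RNA was sequenced from roots of seedlings grown for 9 days on 1/2 MS medium, with 3 libraries per genotype. The 35S:ERF13:MYC line expresses a MYC-tagged ERF13 from the constitutive 35S promoter. The erf13-3 group bears that name in the sample titles, while its genotype label describes an ERF13 SRDX line and the series text writes erf3-3. WT is the wild type. The column headers of the authors' deposited comparisons name it COL and name the erf13-3 group E13SRDX. The labels name no allele, agent or treatment beyond these. ERF13 transcript (AT2G44840) stood at 905, 789 and 773 FPKM in 35S:ERF13:MYC, at 2590, 2710 and 3040 FPKM in erf13-3, and at 1.03, 0.96 and 1.25 FPKM in WT. Both lines thus held far more ERF13 transcript than WT (log2 fold change 9.45, SE 0.18, adjusted p = 4.67e-11 in 35S:ERF13:MYC, and 11.19, SE 0.19, adjusted p = 9.39e-12 in erf13-3), and transgene and endogenous transcript cannot be separated in these values. The libraries held 12147128 to 12324144 expected counts each. The labels do not tell separate plants from repeat libraries, so each p-value reflects the spread among 3 libraries, part or all of which may be technical.

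ERF13 belongs to the AP2/ERF family of plant transcription factors, whose ERF branch is known to bind the GCC box, a short DNA motif in the promoters of many defence genes. ERF factors act in responses to ethylene, jasmonate, pathogens and abiotic stress, and some also act in root development. SRDX is a short repression domain which, fused to an activator, makes it repress the genes it binds.

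The core of the GCC box, GCCGCC on either strand, was found in the window from 250 bases before to 50 bases after the gene start in 7 of the 73 members (9.59%), against 2.57% of all 27444 protein-coding genes and 2.63% of the genes tested below. The 7 sites are shown because they are the letters that AP2/ERF factors of this kind are known to bind. Sequences and coordinates are from the RefSeq annotation of TAIR10.1, written 5′ to 3′ on the strand of the gene, with the GCC box core (or its reverse complement GGCGGC) in capitals.
AT1G53440, receptor-like kinase gene, chr1:19945728-19945757, plus strand, 129 bases before the start: tgattcatgtccGGCGGCtagaattttttt
AT1G72900, TIR domain gene, chr1:27432031-27432060, plus strand, 135 bases before the start: ttttcttattttGGCGGCtcatcttctctt
AT1G72920, TIR domain gene, chr1:27437703-27437732, plus strand, 184 bases before the start: ttttcttactttGGCGGCccatcttttctc
AT3G59930, defensin-like gene, chr3:22140322-22140351, minus strand, 19 bases before the start: gttataaaaactGGCGGCaatacacaattg
PRX37, peroxidase gene, chr4:5600349-5600378, minus strand, at base 33 after the start: acaaaagtaaaaGCCGCCaagctagaacct
PUP7, purine permease gene, chr4:10071469-10071498, plus strand, at base 1 of the gene: aattctcgtagaGCCGCCattcaaaagttt
AT4G18205, nucleotide-sugar transporter family gene, chr4:10073533-10073562, plus strand, 166 bases before the start: agttctcttagaGCCGCCattcaaaagttt

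The sites of PUP7 and AT4G18205 were identical at 28 of 30 bases and those of AT1G72900 and AT1G72920 at 26 of 30, so the 7 sites are not independent sequences. The window of AT4G18205 also overlaps PUP7 and AT4G18203, and its GCC box core lies within both of these genes. The window of AT1G72900 overlaps its upstream neighbour AT1G72890. That of AT1G72920 overlaps AT1G09343, a gene annotated as a lncRNA on the other strand, which also contains the printed site. For AT1G53440 and AT3G59930 the 250 bases before the start overlap no other annotated gene, and they are given in full, with the same capitals.
AT1G53440, chr1:19945619-19945868, plus strand: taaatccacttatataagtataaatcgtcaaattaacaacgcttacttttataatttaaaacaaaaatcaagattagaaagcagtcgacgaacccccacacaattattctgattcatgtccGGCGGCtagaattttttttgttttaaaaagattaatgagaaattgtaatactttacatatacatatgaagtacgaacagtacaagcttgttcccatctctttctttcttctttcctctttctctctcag
AT3G59930, chr3:22140321-22140570, minus strand: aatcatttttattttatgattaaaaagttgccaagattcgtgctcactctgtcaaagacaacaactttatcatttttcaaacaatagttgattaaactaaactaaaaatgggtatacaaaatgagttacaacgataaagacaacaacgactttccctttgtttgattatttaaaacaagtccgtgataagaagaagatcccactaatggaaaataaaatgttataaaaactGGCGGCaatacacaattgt

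Other promoter motifs were searched in the same window, on both strands. The DRE core (CCGAC) was in 21.9% of the members and 15.0% of all protein-coding genes, the W box (TTGACC or TTGACT) in 35.6% and 32.4%, and the as-1 core (TGACG) in 23.3% and 23.1%. The G box (CACGTG) was in 1 member (1.37%), against 7.68% of all genes. In longer windows chosen after the data had been seen, the GCC box core was in 11% of the members and 4.12% of all genes over 500 bases before the start, and in 16.4% and 8.44% over 1000 bases. In the 250 bases before the start alone, it was in 6.85% of the members and 1.87% of all genes. These are matches of letters, and 66 of the 73 members had no GCC box core in the 250-to-50 window.

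**Figure D1:**
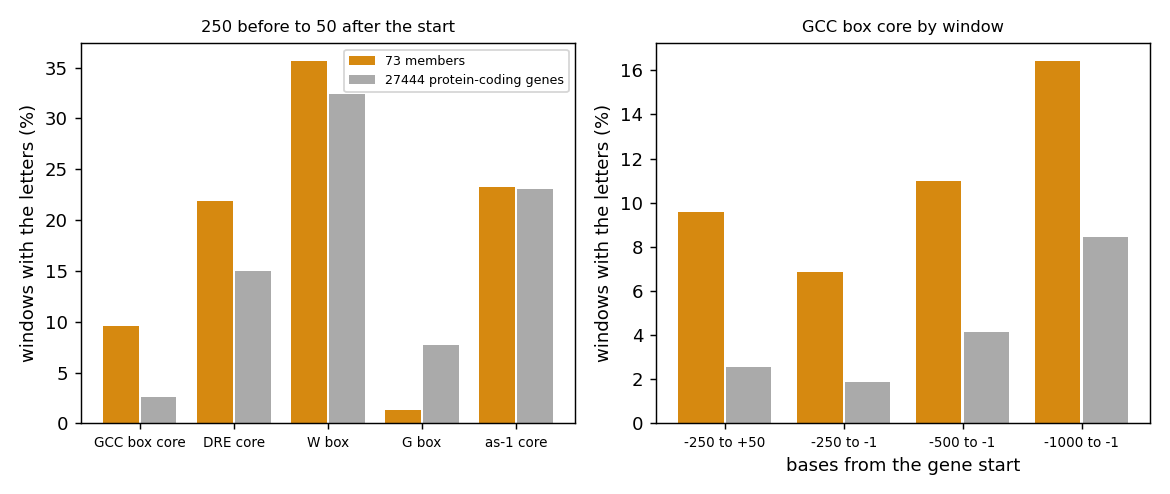
Share of promoter windows (%) that hold each motif among the 73 members (orange) and all 27444 protein-coding genes (grey), for 5 motifs in the window from 250 bases before to 50 after the gene start (left) and for the GCC box core in 4 windows (right). The GCC box core was in 9.59% of member windows and 2.57% of all windows, and the G box in 1.37% and 7.68%.

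Among the members were 10 genes for immune receptors and kinases, 12 for defence-related and glycine-rich proteins, 6 for transcription factors, 8 for membrane transporters, 14 for metabolic enzymes and 7 for cell wall proteins, with 16 of other or unknown function. This grouping was made by hand from the gene names after the values were known. Most members were low in WT roots. The members' means ran from 1.2 to 1030 FPKM in 35S:ERF13:MYC (median 10.2), from 0 to 124 FPKM in erf13-3 (median 0.52) and from 0.1 to 335 FPKM in WT (median 2.35), against a WT median of 10.1 FPKM over all genes tested. In 16 members the WT mean was under 1 FPKM (21.9%, against 7.76% of the genes tested). The mean ratio of 35S:ERF13:MYC to WT ran from 2.01 to 97.5 with a median of 3.11, and that of WT to erf13-3 from 2.0 to 70.1 with a median of 4.65 over the 69 members with a count in erf13-3. In 8 members the 35S:ERF13:MYC mean was at least 10 times that of WT, and in 20 members the erf13-3 mean was 10 or more times lower than that of WT or at 0. Since whole roots were sequenced, fewer cells of a type and less RNA per cell cannot be told apart in any of these values.

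Across all genes, edgeR's quasi-likelihood test with Benjamini-Hochberg adjustment called 13.8% of 19714 genes tested higher in 35S:ERF13:MYC than in WT and 13.7% lower in erf13-3 than in WT, at an adjusted p under 0.05. Both calls were made for 391 genes (1.98%). Of the members, 72 passed the filter on low counts, all 72 were called higher in 35S:ERF13:MYC and 71 were called lower in erf13-3. The rule used these same contrasts, which share their WT libraries, so nothing is read from these counts. AT3G47100, of unknown function, did not pass the filter, and AT1G72920 was not called in erf13-3. Of all calls in 35S:ERF13:MYC 43.7% were higher (2713 higher, 3496 lower) and in erf13-3 about as many were higher as lower (2689 and 2692), whereas limma on log2(FPKM + 1), which uses no TMM scaling, gave 60.3% (4167 and 2748) and 71.5% (4819 and 1920). The authors' deposited table for 35S:ERF13:MYC lists all 73 members as up, and the authors' deposited table for erf13-3 lists 57 of them as down.

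**Figure D2:**
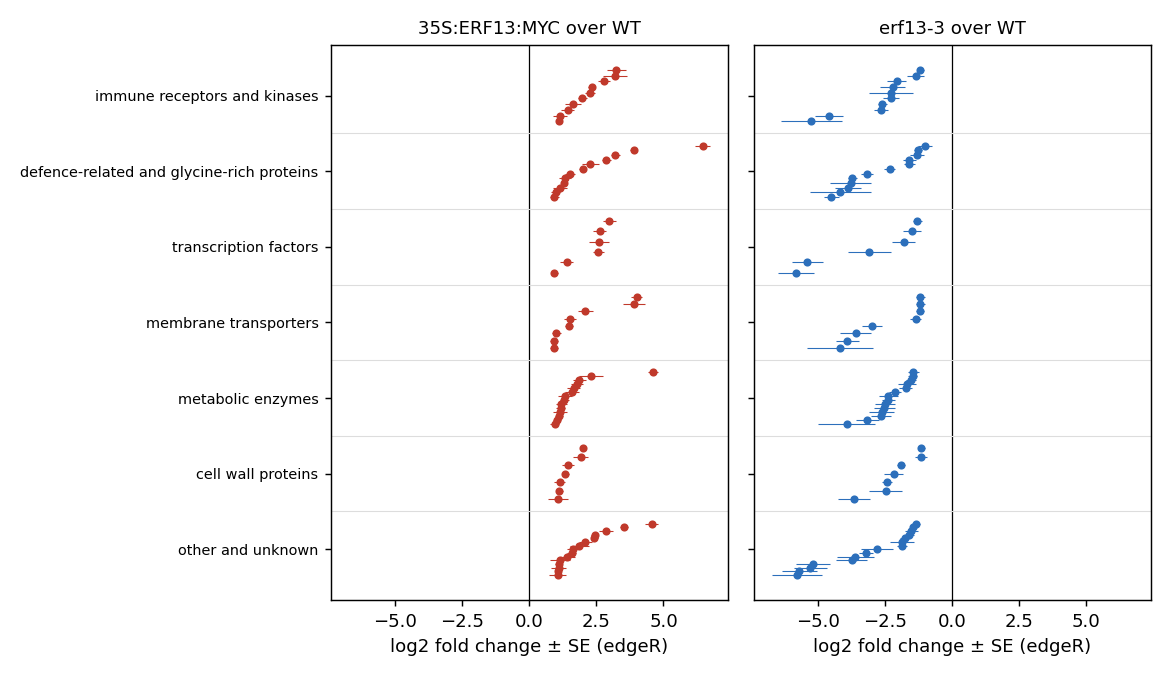
Log2 fold change over WT with its SE (edgeR) of the 72 members that passed the filter, by class, in 35S:ERF13:MYC (left, red) and erf13-3 (right, blue). The values ran from 0.91 to 6.46 (median 1.59) in 35S:ERF13:MYC and from -5.81 to -1.01 (median -2.34) in erf13-3, on sides of 0 that the rule fixed. The erf13-3 values of members with no count there, such as AT1G34047 and PUP8 with 6 WT counts each, depend on the fit and are no measured fold.

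Immune receptors and kinases are given first. Resistance proteins with a TIR domain and nucleotide-binding receptors detect pathogen effectors inside the cell, and receptor-like kinases sense signals at the cell surface. The 10 members of this class were scarce in WT, with means of 0.12 to 3.91 FPKM. They stood at 1.2 to 18.7 FPKM in 35S:ERF13:MYC and at 0 to 1.9 FPKM in erf13-3. RPS4, which encodes a TIR receptor that acts in a pair with RRS1 against bacterial effectors, had 8.93, 9.12 and 8.85 FPKM in 35S:ERF13:MYC, 2.06, 2.18 and 1.47 FPKM in erf13-3, and 3.98, 4.36 and 3.38 FPKM in WT. Its 35S:ERF13:MYC libraries were nearly equal and all about 2.30 times the WT mean. AT1G53440, for a leucine-rich repeat receptor-like kinase and the first of the GCC box sites above, had 18.5, 19.3 and 18.5 FPKM in 35S:ERF13:MYC, 0.71, 0.60 and 0.57 FPKM in erf13-3, and 3.99, 3.94 and 2.55 FPKM in WT. The mean ratio was 5.37 for 35S:ERF13:MYC over WT and 5.57 for WT over erf13-3. AT1G53440 overlaps AT1G53450 on the opposite strand over 557 bases, a gene with means of 5.98 FPKM in 35S:ERF13:MYC, 2.40 FPKM in erf13-3 and 2.41 FPKM in WT. AT1G63350, for a CC-type nucleotide-binding receptor, had no count in any erf13-3 library and was at least 1.43-fold lower there than in WT, against a floor of 3 counts per library. AT1G11330 (S-locus lectin kinase), AT3G09010 (protein kinase), AT4G09420 (TIR-NBS class) and AT3G04220 (TIR-NBS-LRR class) had mean ratios of 35S:ERF13:MYC to WT of 4.18, 2.42, 2.91 and 3.35, and of WT to erf13-3 of 6.08, 23.9, 3.84 and 4.19.

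A run of genes with a TIR domain on chromosome 1 held 3 of these members. AT1G72900 had 13.8, 11.2 and 10.7 FPKM in 35S:ERF13:MYC, 0.54, 0.36 and 0.66 FPKM in erf13-3, and 2.83, 1.83 and 2.19 FPKM in WT. AT1G72920 was the most variable member in 35S:ERF13:MYC, with 18.5, 11.5 and 6.01 FPKM there, 0.44, 0.07 and 0.27 FPKM in erf13-3, and 1.13, 0.70 and 1.83 FPKM in WT. AT1G72940 had 16.4, 11.3 and 9.87 FPKM in 35S:ERF13:MYC, 0.71, 0.68 and 0.78 FPKM in erf13-3, and 1.68, 1.29 and 1.98 FPKM in WT. In each of the 3 genes 35S:ERF13:MYC replicate 1 was the highest library. TIR (AT1G72930), which lies between AT1G72920 and AT1G72940 and is no member, rose in 35S:ERF13:MYC (log2 fold change 2.69, adjusted p = 0.00115), and its log2 fold change of -2.71 in erf13-3 did not pass the test (adjusted p = 0.0645). At the edges of the run, AT1G72890 was called only in erf13-3 (log2 fold change -1.66, adjusted p = 0.000631), and AT1G72950 was called in neither line (0.44, adjusted p = 0.164 in 35S:ERF13:MYC, and 0.53, adjusted p = 0.0956 in erf13-3). How the counting split reads between such close copies is not stated, so the values of single copies are uncertain.

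The defence-related and glycine-rich proteins included the most abundant member and the one with the largest mean ratio. AT1G34047, for a defensin-like protein, had 32.3, 26.3 and 29.2 FPKM in 35S:ERF13:MYC, no count in erf13-3, and 0.44, 0.17 and 0.29 FPKM in WT. Its 35S:ERF13:MYC mean was 97.5 times that of WT, on 6 WT counts in all, and at least 66.3 times the erf13-3 level. WT was itself under the floor of 3 counts per library, so no fold of erf13-3 against WT is given. AT1G34047 overlaps AT1G34049 on the opposite strand over 468 bases (group mean of 1.16 FPKM in 35S:ERF13:MYC, no count in erf13-3 or WT), and the strand setting of the counting is not stated.

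Lectins bind sugars of microbial or plant surfaces. The legume lectin gene AT3G16530 had 89.5, 84.0 and 88.7 FPKM in 35S:ERF13:MYC, 0.42, 0.34 and 0.86 FPKM in erf13-3, and 8.43, 11.3 and 13.2 FPKM in WT. Its means differed 162-fold between 35S:ERF13:MYC and erf13-3. A second legume lectin gene, AT3G15356, stood at 80.7 ± 4.16 FPKM in 35S:ERF13:MYC, 8.55 ± 1.61 FPKM in erf13-3 and 18.7 ± 1.57 FPKM in WT (SD, n = 3 each). AT3G16530 overlaps AT3G16525, a member of unknown function on the opposite strand, over 783 bases. AT3G16525 stood at 112 ± 8.68 FPKM in 35S:ERF13:MYC, 5.80 ± 0.266 FPKM in erf13-3 and 19.1 ± 3.42 FPKM in WT, and reads of the shared stretch may be counted for either gene.

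GRP3 encodes a secreted glycine-rich protein known to bind the wall-associated kinase WAK1. GRP3 had 191, 151 and 149 FPKM in 35S:ERF13:MYC, 2.60, 1.85 and 2.18 FPKM in erf13-3, and 12, 10.8 and 8.08 FPKM in WT. Its next member gene, AT2G05510, was the most abundant of all members, with 1423, 907 and 773 FPKM in 35S:ERF13:MYC, 148, 112 and 111 FPKM in erf13-3, and 374, 288 and 342 FPKM in WT. The 2 genes thus differed in fold, 15.9 for GRP3 against 3.09 for AT2G05510 as the mean ratio of 35S:ERF13:MYC to WT. Other genes were taken by the symbol stem GRP alone, and they include RNA-binding proteins such as GRP7. Of 9 tested non-members 2 were higher and 1 lower in 35S:ERF13:MYC, 8 were higher and 1 lower in erf13-3, and none had the members' pattern. For non-members, here and below, that pattern means both calls, higher in 35S:ERF13:MYC and lower in erf13-3, at any fold. It was called in 1.98% of all genes tested, so its absence among 9 genes is near the overall share. The count of 8 depends on single libraries, with 3 without WT replicate 2 and 5 without erf13-3 replicate 1 or 2, and the 2 higher in 35S:ERF13:MYC became 1 without WT replicate 2 or 35S:ERF13:MYC replicate 2. GRP9, for example, fell in erf13-3 (log2 fold change -1.92, adjusted p = 1.52e-06) but had a log2 fold change of -0.31 in 35S:ERF13:MYC (adjusted p = 0.0972, or 0.0494 without erf13-3 replicate 3).

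AIG2, named for its induction by a bacterial avirulence gene, had 25.5, 22.2 and 22.7 FPKM in 35S:ERF13:MYC, 1.39, 1.14 and 0.88 FPKM in erf13-3, and 1.84, 3.06 and 2.16 FPKM in WT. The difference lay mostly on the side of 35S:ERF13:MYC, 9.96 times WT, while the WT mean was 2.07 times that of erf13-3. SIB2, whose VQ-motif protein binds the defence factor WRKY33, had 5.58, 4.53 and 3.89 FPKM in 35S:ERF13:MYC, 0.20, 0.10 and 0.10 FPKM in erf13-3, and 1.88, 1.39 and 2.49 FPKM in WT. Here the mean of WT was 14.4 times that of erf13-3 and the mean of 35S:ERF13:MYC 2.43 times that of WT. BAP2, for an inhibitor of programmed cell death that works with BON1, had 2.88, 3.10 and 2.42 FPKM in 35S:ERF13:MYC, 0.09, 0 and 0 FPKM in erf13-3, and 0.65, 0.56 and 0.37 FPKM in WT. On its few erf13-3 counts the ratio of WT to erf13-3 was 16.8, with an exact 95% counting interval of 2.64 to 704.

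The other antimicrobial-type genes of this class were abundant. AT1G25275, for a thionin-like protein, stood at 132 ± 10.5 FPKM in 35S:ERF13:MYC, 4.04 ± 0.707 FPKM in erf13-3 and 50.5 ± 3.78 FPKM in WT. AT3G59930, the defensin-like gene with a GCC box core just before its start, stood at 62.2 ± 12.3 FPKM in 35S:ERF13:MYC, 3.62 ± 1.21 FPKM in erf13-3 and 29.3 ± 2.20 FPKM in WT. Both were further from WT in erf13-3 than in 35S:ERF13:MYC, with mean ratios of WT to erf13-3 of 12.5 and 8.08 and of 35S:ERF13:MYC to WT of 2.61 and 2.13. AT3G13650, for a dirigent-like protein, and AT5G62150, for a LysM protein, had mean ratios of 35S:ERF13:MYC to WT of 2.74 and 2.07.

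Among transcription factor genes, NAC042, whose NAC factor is known to delay leaf senescence and to act in camalexin synthesis, had 13.8, 13.4 and 10.1 FPKM in 35S:ERF13:MYC, 0.08, 0 and 0 FPKM in erf13-3, and 1.5, 1.66 and 2.45 FPKM in WT. It had the largest mean ratio between 35S:ERF13:MYC and erf13-3 of the 69 members with a count in erf13-3, 466, and its WT-to-erf13-3 ratio of counts was 70.3 with a 95% counting interval of 12.2 to 2820. RAP2.9, which encodes another AP2/ERF factor, of the DREB branch that binds the DRE, had 10.5, 8.02 and 8.99 FPKM in 35S:ERF13:MYC, 0, 0 and 0.08 FPKM in erf13-3, and 1.45, 1.45 and 1.37 FPKM in WT. Its ratio of WT to erf13-3 counts was 52.5 (9.02 to 2110). In both genes a single erf13-3 library held a count, and all WT libraries lay between the other groups, as the rule required.

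MYB31, for an R2R3 MYB factor, had 5.34, 4.54 and 3.94 FPKM in 35S:ERF13:MYC, 0.15, 0.26 and 0.10 FPKM in erf13-3, and 0.75, 0.41 and 0.44 FPKM in WT. TCP13, for a factor of the TCP family that acts in leaf development, had 1.89, 1.93 and 1.68 FPKM in 35S:ERF13:MYC, 0, 0.10 and 0 FPKM in erf13-3, and 0.38, 0.14 and 0.32 FPKM in WT. TAC1, for a zinc finger protein that activates telomerase, had 4.05, 4.09 and 4.73 FPKM in 35S:ERF13:MYC, 0.39, 0.58 and 0.78 FPKM in erf13-3, and 1.25, 1.73 and 1.54 FPKM in WT. The libraries of 35S:ERF13:MYC were thus at least 2 times any WT library in all 3 genes. The most abundant of the class, MYB50, stood at 19.6 ± 2.21 FPKM in 35S:ERF13:MYC, 4.25 ± 0.626 FPKM in erf13-3 and 9.47 ± 1.26 FPKM in WT, close to the limits of the rule. Among the relatives of these factors, in each case without the members, 7 of 55 tested NAC genes rose and 18 fell in 35S:ERF13:MYC, 9 of 75 MYB genes rose and 20 fell, and 1 of 12 TCP genes rose and 7 fell. Of all genes tested 13.8% rose and 17.7% fell there. Among them 2 NAC and 4 MYB genes were called higher in 35S:ERF13:MYC and lower in erf13-3. Limma on FPKM gave 11 NAC genes higher and 15 lower, and 4 NAC genes with both calls. Without 35S:ERF13:MYC replicate 2 or 3, 4 NAC genes rose, without replicate 2 no TCP gene did, and 2 MYB genes had both calls without WT replicate 2 or 35S:ERF13:MYC replicate 1 or 3. Of the 8 other RAP2 genes 3 fell in each line and none rose, among them RAP2.6 (log2 fold change -1.35, adjusted p = 7.12e-07 in 35S:ERF13:MYC).

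**Figure D3:**
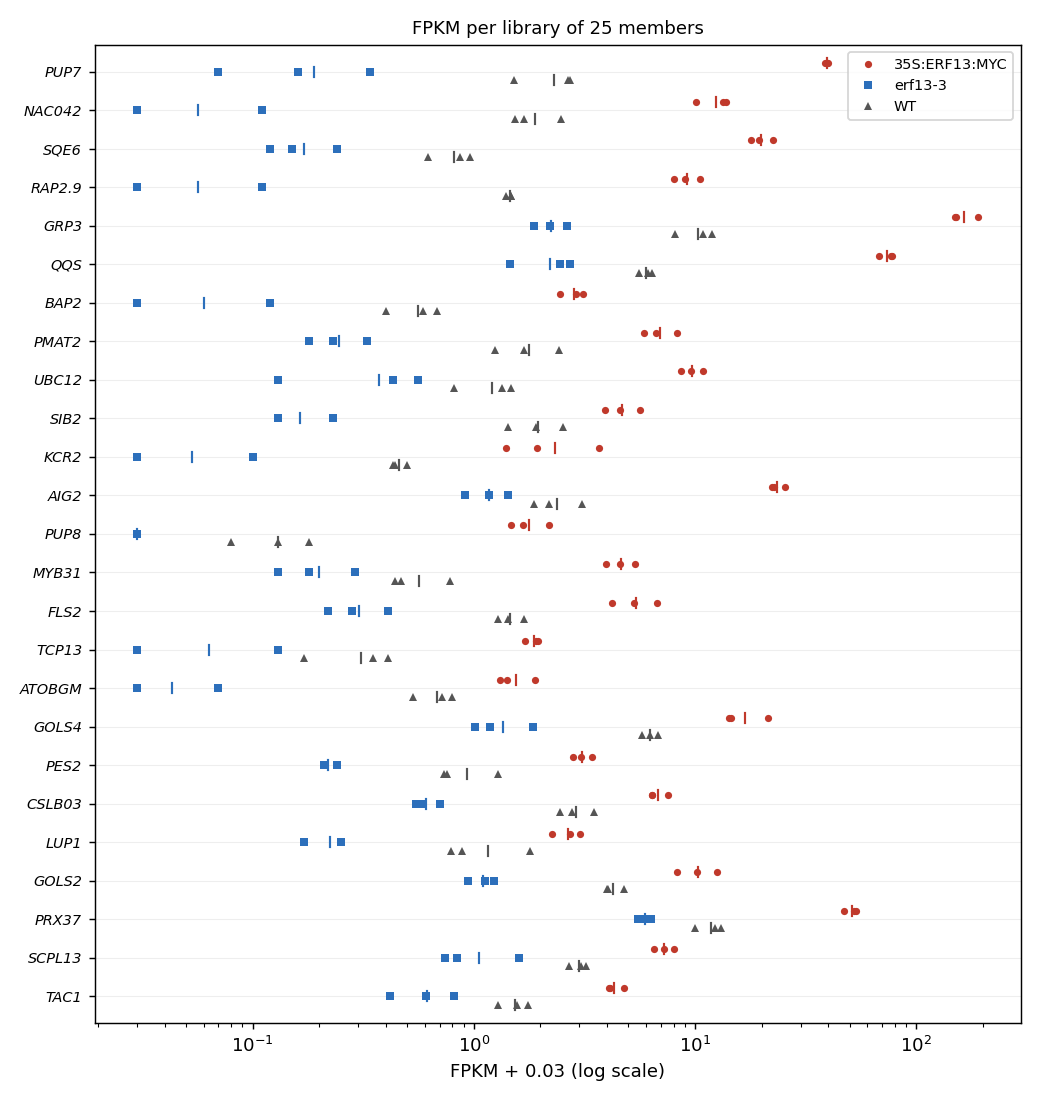
FPKM + 0.03 per library (log axis) of the 25 members with a gene symbol whose means, on FPKM + 0.1, differ most between 35S:ERF13:MYC and erf13-3, with 35S:ERF13:MYC as red circles, erf13-3 as blue squares and WT as grey triangles, and a vertical bar at each group's mean. For every gene the libraries of WT lie between those of the other groups, as the rule requires, with NAC042 (466 times) at the widest spread of means among those with a count in erf13-3.

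Purine permeases carry purine bases and, for some of them, cytokinins across membranes. PUP7 had 39.4, 40.0 and 38.5 FPKM in 35S:ERF13:MYC, 0.13, 0.04 and 0.31 FPKM in erf13-3, and 1.49, 2.68 and 2.63 FPKM in WT. Its 35S:ERF13:MYC libraries differed by little and averaged 17.3 times the WT mean, which was 14.2 times the erf13-3 mean. PUP8 was far less abundant, with 2.16, 1.45 and 1.64 FPKM in 35S:ERF13:MYC, no count in erf13-3, and 0.10, 0.15 and 0.05 FPKM in WT. AT4G18205, for a nucleotide-sugar transporter family protein, had 16.2, 13.9 and 14.6 FPKM in 35S:ERF13:MYC, 0.46, 0.36 and 1.16 FPKM in erf13-3, and 3.09, 5.79 and 5.47 FPKM in WT.

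These 3 genes and AT4G18203, of unknown function, are neighbours on chromosome 4, between 10069458 and 10075370. AT4G18203 lies on the minus strand and overlaps PUP7 over 814 bases. It had 74.9, 66.7 and 56.4 FPKM in 35S:ERF13:MYC, no count in erf13-3, and 2.00, 2.81 and 2.81 FPKM in WT, at least 2.09-fold lower in erf13-3 than in WT. Without a stated strand setting, reads of PUP7 and AT4G18203 cannot be told apart in the shared stretch. The next gene, PUP10, was no member: it fell in erf13-3 (log2 fold change -4.37, adjusted p = 1.83e-05), and its log2 fold change of 0.57 in 35S:ERF13:MYC did not pass the test (adjusted p = 0.0957, but 0.0198 in limma on log2(FPKM + 1) and 0.0442 without erf13-3 replicate 3). Elsewhere in the genome, PUP4 rose in 35S:ERF13:MYC (log2 fold change 0.69, adjusted p = 0.0155) and fell in erf13-3 (-2.33, adjusted p = 1.09e-05), and its rise was not called without WT replicate 2 (0.0682) or 35S:ERF13:MYC replicate 1 (0.0591). Of the 10 PUP genes tested that are no members, 3 rose and 1 fell in 35S:ERF13:MYC, 5 fell and none rose in erf13-3, and 2 had both calls. Without WT replicate 2 or without 35S:ERF13:MYC replicate 1, 1 rose and 1 had both calls. Their median log2 fold change was 0.24 in 35S:ERF13:MYC and -0.43 in erf13-3, beside 0.02 over all genes tested in each comparison.

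Among the other transporters, ABCB21, for an auxin transporter, stood at 5.53 ± 0.621 FPKM in 35S:ERF13:MYC, 0.883 ± 0.165 FPKM in erf13-3 and 1.83 ± 0.304 FPKM in WT. UMAMIT29, for an amino acid transporter of the UMAMIT family, stood at 20.6 ± 1.02 FPKM in 35S:ERF13:MYC, 4.13 ± 1.23 FPKM in erf13-3 and 9.52 ± 2.64 FPKM in WT. The MATE efflux gene AT3G23550 stood at 3.47 ± 0.960 FPKM in 35S:ERF13:MYC, 0.06 ± 0.0265 FPKM in erf13-3 and 0.753 ± 0.297 FPKM in WT. A second MATE gene, AT5G52450, and the amino acid transporter gene AT1G08230 lay close to the limit, with mean ratios of 35S:ERF13:MYC to WT of 2.07 and 2.01. Of 32 other UMAMIT genes 1 rose and 14 fell in 35S:ERF13:MYC (8 fell without WT replicate 2 and 9 without 35S:ERF13:MYC replicate 3; 3 rose in limma on FPKM).

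**Figure D4:**
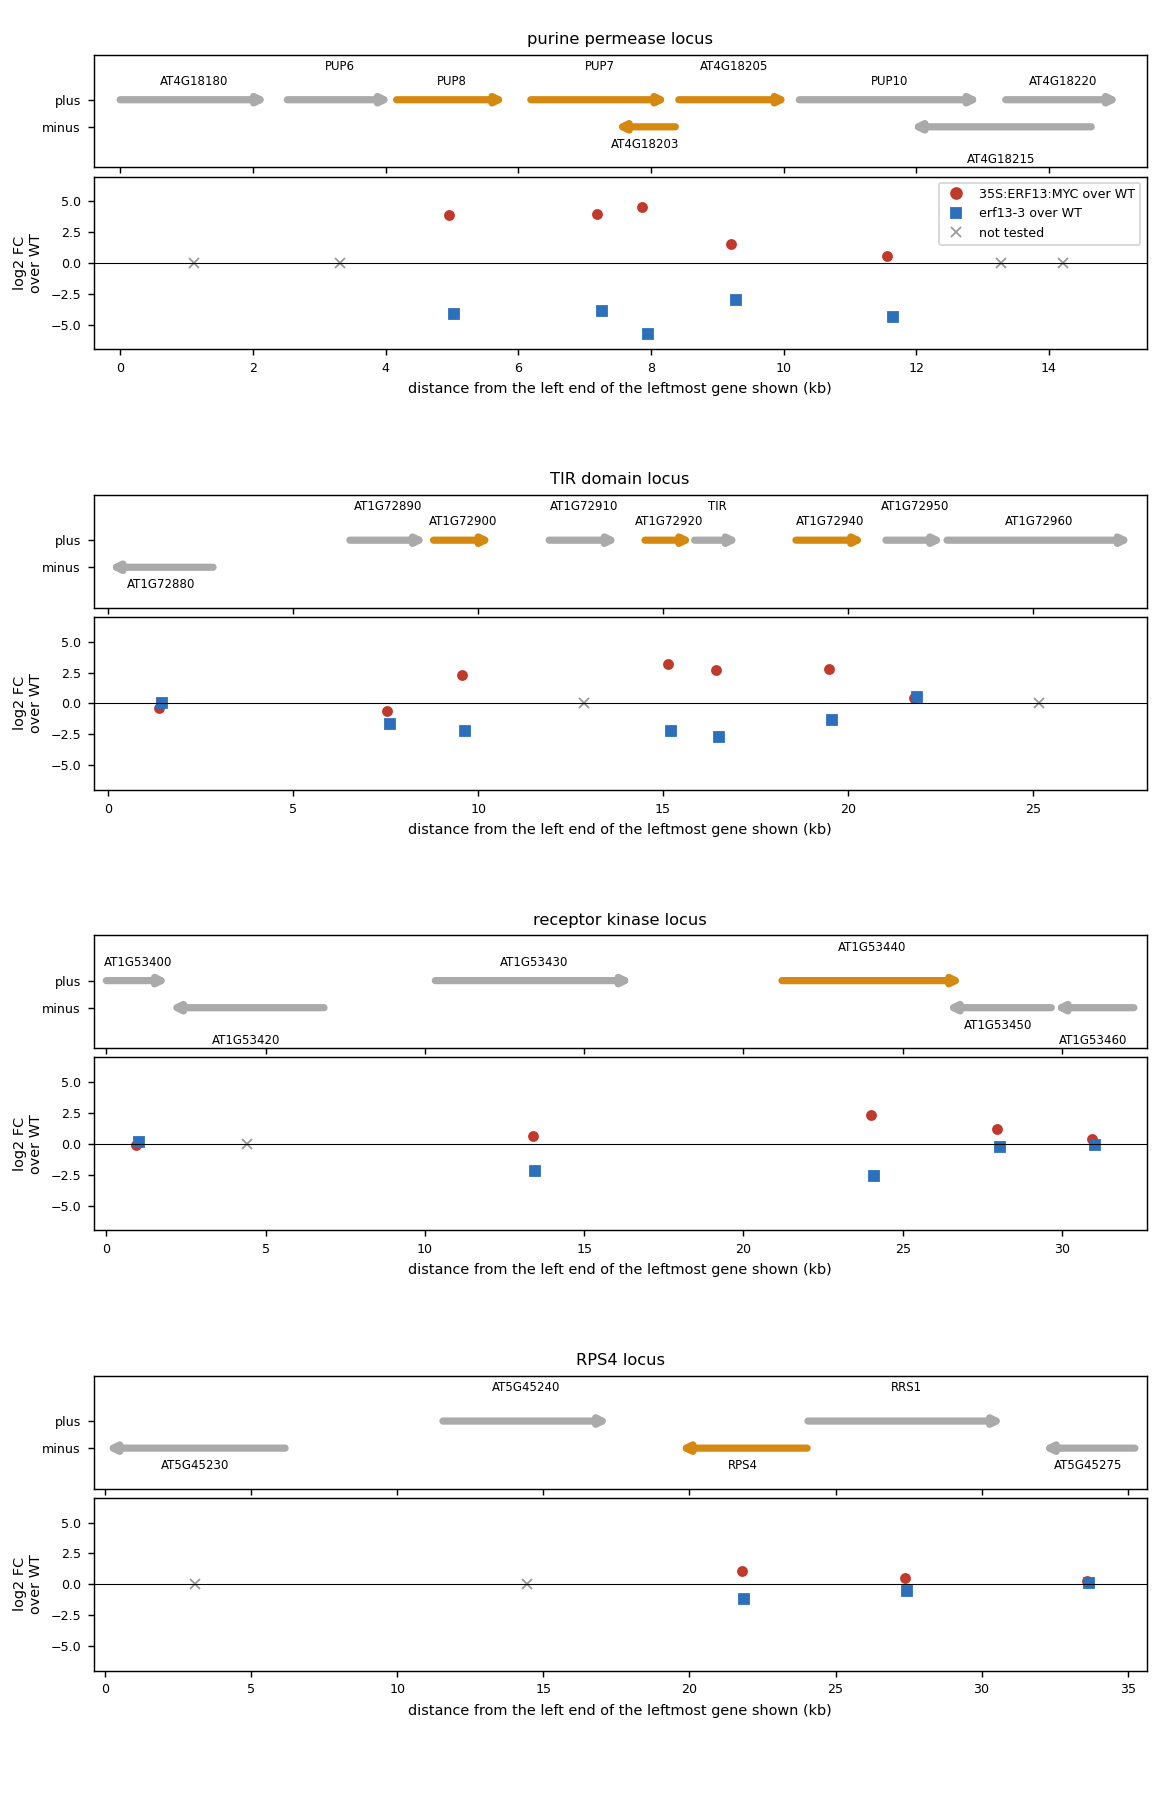
Genes on each strand (arrows, members in orange) and log2 fold changes over WT (edgeR) at 4 loci that hold members, with 35S:ERF13:MYC as red circles, erf13-3 as blue squares and crosses for genes not tested, against the distance in kb from the left end of the leftmost gene shown. At the purine permease locus PUP10, beside the 4 members, has 0.57 in 35S:ERF13:MYC and -4.37 in erf13-3, and at the RPS4 locus RRS1 has 0.55 in 35S:ERF13:MYC and -0.54 in erf13-3. PUP8 and AT4G18203 had no count in erf13-3, so their erf13-3 points depend on the fit and are no measured fold.

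Among the metabolic enzymes, SQE6, named as a squalene monooxygenase gene, had 22.4, 17.9 and 19.5 FPKM in 35S:ERF13:MYC, 0.09, 0.12 and 0.21 FPKM in erf13-3, and 0.84, 0.59 and 0.93 FPKM in WT. Its mean in 35S:ERF13:MYC was 25.3 times that of WT, and that of WT 5.62 times that of erf13-3. LUP1, for lupeol synthase, which makes a triterpene, had 2.98, 2.70 and 2.23 FPKM in 35S:ERF13:MYC, 0.14, 0.22 and 0.22 FPKM in erf13-3, and 0.76, 1.77 and 0.85 FPKM in WT. The related genes SQE3 and LUP2 did not share the pattern: SQE3 fell in 35S:ERF13:MYC (log2 fold change -1.11, adjusted p = 6.48e-06), and LUP2 had 0.33 there (adjusted p = 0.0363, not called under DESeq2 or without any 1 of WT replicates 1 and 2 and the 35S:ERF13:MYC replicates, at most 0.132) and -0.12 in erf13-3 (adjusted p = 0.47). LUP1 overlaps SRF5 on the opposite strand over 551 bases, but SRF5 had no more than 0.177 FPKM as a group mean.

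Galactinol synthases make the first intermediate of raffinose sugars, which gather under drought and cold. GOLS4 had 21.37, 14.25 and 14.49 FPKM in 35S:ERF13:MYC, 1.83, 1.15 and 0.98 FPKM in erf13-3, and 6.75, 6.21 and 5.74 FPKM in WT. GOLS2 had 12.6, 8.22 and 10.2 FPKM in 35S:ERF13:MYC, 1.09, 0.91 and 1.2 FPKM in erf13-3, and 4.75, 3.96 and 4.03 FPKM in WT. Both were lower in every erf13-3 library than in any WT library, as the rule required, with mean ratios of WT to erf13-3 of 4.72 and 3.98. Abscisic acid and desiccation genes, with which galactinol synthase genes are often induced, were lower in both lines: of 12 tested, 8 fell and none rose in 35S:ERF13:MYC, and 12 fell in erf13-3. Only 6 fell in 35S:ERF13:MYC in limma on FPKM and without WT replicate 2 or 35S:ERF13:MYC replicate 1 or 2. RD29B, for example, had log2 fold changes of -1.30 (adjusted p = 0.000642) in 35S:ERF13:MYC and -3.83 in erf13-3.

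FLS2 (AT5G63580), a homologue of the flavonol synthase gene FLS1 and not the flagellin receptor gene of the same name, had 6.68, 4.17 and 5.28 FPKM in 35S:ERF13:MYC, 0.38, 0.25 and 0.19 FPKM in erf13-3, and 1.26, 1.39 and 1.65 FPKM in WT. The 4 other tested genes of its family fell in erf13-3, FLS5 the most (log2 fold change -3.22, with 0.24 in 35S:ERF13:MYC, adjusted p = 0.073), and none was called in 35S:ERF13:MYC. FLS5 was called there under the replicate block (adjusted p = 0.0438), in limma on log2(FPKM + 1) (0.00406) and without WT replicate 3 (0.0158). Of 8 tested flavonoid genes 3 rose and none fell in 35S:ERF13:MYC, and 1 rose and 4 fell in erf13-3. CYP75B1, for flavonoid 3′-hydroxylase, and CHS, for chalcone synthase, had both calls of the members' pattern, though neither rose 2-fold. Their log2 fold changes were 0.70 (adjusted p = 0.014) and 0.45 (adjusted p = 0.0106) in 35S:ERF13:MYC and -2.49 and -0.83 in erf13-3. The rise of CYP75B1 was not called without WT replicate 2 (0.0596) or 35S:ERF13:MYC replicate 1 (0.0571). CYP75B1 stood at 8.76 ± 2.14 FPKM in 35S:ERF13:MYC, 0.973 ± 0.283 FPKM in erf13-3 and 4.98 ± 0.527 FPKM in WT.

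PMAT2, for a malonyltransferase of phenolic glucosides, had 8.30, 6.61 and 5.87 FPKM in 35S:ERF13:MYC, 0.15, 0.20 and 0.30 FPKM in erf13-3, and 1.22, 1.65 and 2.39 FPKM in WT. KCR2, a homologue of the ketoacyl-CoA reductase gene KCR1 of fatty acid elongation, had 3.65, 1.37 and 1.90 FPKM in 35S:ERF13:MYC, 0.07, 0 and 0 FPKM in erf13-3, and 0.47, 0.40 and 0.41 FPKM in WT. PMAT1 and KCR1 did not go with them: both fell in 35S:ERF13:MYC (log2 fold changes of -1.29, adjusted p = 5.59e-06, and -0.38, adjusted p = 0.0119, or 0.0568 without 35S:ERF13:MYC replicate 2). PES2, for an enzyme that makes phytyl esters in plastids, had 3.40, 3.01 and 2.77 FPKM in 35S:ERF13:MYC, 0.18, 0.21 and 0.18 FPKM in erf13-3, and 0.73, 0.70 and 1.26 FPKM in WT. SCPL13, for a serine carboxypeptidase-like protein, had 7.22, 6.46 and 7.99 FPKM in 35S:ERF13:MYC, 1.57, 0.81 and 0.71 FPKM in erf13-3, and 3.03, 2.65 and 3.17 FPKM in WT. All 4 genes had every 35S:ERF13:MYC library above every WT library and every erf13-3 library below it, as the rule required. PES2 overlaps AT3G26850 on the opposite strand over 796 bases, a gene with means of 5.52 FPKM in 35S:ERF13:MYC, 4.37 FPKM in erf13-3 and 3.70 FPKM in WT. AT3G54150 (methyltransferase superfamily), AT5G44400 (berberine family) and AT1G49390 (oxygenase superfamily) had mean ratios of 35S:ERF13:MYC to WT of 3.02, 2.71 and 2.19. SCPL6 and UGT71C3, for a UDP-glucosyltransferase, had mean ratios of 35S:ERF13:MYC to WT of 2.09 and 2.34 and of WT to erf13-3 of 2.52 and 2.63. Among 29 other SCPL genes tested, 2 rose and 13 fell in 35S:ERF13:MYC, and 7 rose and 8 fell in erf13-3. None of these had the members' pattern (1 without erf13-3 replicate 3), beside 1.98% of all genes tested. Without 35S:ERF13:MYC replicate 2, none rose and 9 fell in that line. Of 9 other UGT71 genes 3 rose and 3 fell in 35S:ERF13:MYC, 1 rose and 5 fell in erf13-3, and 2 had the members' pattern, or 1 under DESeq2 and without WT replicate 3, 35S:ERF13:MYC replicate 2, or erf13-3 replicate 1 or 3. In erf13-3, 3 fell under DESeq2 and without erf13-3 replicate 1.

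Of the cell wall proteins, PRX37, for a class III peroxidase, had 53.4, 52.2 and 47.2 FPKM in 35S:ERF13:MYC, 5.93, 5.47 and 6.26 FPKM in erf13-3, and 13.1, 9.99 and 12.3 FPKM in WT. EXPA1, for an alpha-expansin, which loosens the wall, stood at 64.7 ± 6.70 FPKM in 35S:ERF13:MYC, 13.6 ± 2.22 FPKM in erf13-3 and 27.3 ± 8.46 FPKM in WT. Both sat at the edge of the rule on the erf13-3 side, where their means were 0.4989 and 0.4979 of the WT mean. CSLB03, for a cellulose synthase-like protein, had 7.55, 6.35 and 6.33 FPKM in 35S:ERF13:MYC, 0.55, 0.67 and 0.52 FPKM in erf13-3, and 2.75, 3.48 and 2.41 FPKM in WT. Its relatives went the other way: of 3 other CSLB genes tested, 2 fell in 35S:ERF13:MYC and 2 rose in erf13-3. No such fall was called in limma on FPKM or without WT replicate 2 or 35S:ERF13:MYC replicate 1 or 3. The other members of the class were AT5G19810 (extensin-like), AT3G47380 (pectin methylesterase inhibitor), AT1G65570 (pectin lyase-like) and AT2G41810 (DUF642), with mean ratios of 35S:ERF13:MYC to WT of 4.1, 2.29, 2.72 and 2.96.

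In the remaining class, QQS, a gene found only in Arabidopsis thaliana that shifts carbon between starch and protein, had 76.6, 77.6 and 67.6 FPKM in 35S:ERF13:MYC, 2.42, 1.42 and 2.70 FPKM in erf13-3, and 6.08, 5.53 and 6.37 FPKM in WT. It was 12.3 times WT in 35S:ERF13:MYC. UBC12, for a ubiquitin-conjugating enzyme, had 10.8, 9.59 and 8.57 FPKM in 35S:ERF13:MYC, 0.10, 0.53 and 0.40 FPKM in erf13-3, and 0.78, 1.31 and 1.45 FPKM in WT. The WT libraries again lay between those of the other groups, as the rule required. ATOBGM, for an Obg-type GTPase, had 1.38, 1.87 and 1.29 FPKM in 35S:ERF13:MYC, 0, 0 and 0.04 FPKM in erf13-3, and 0.69, 0.77 and 0.50 FPKM in WT, with a ratio of WT to erf13-3 counts of 48.5 (8.31 to 1960). AT2G16380, for a Sec14-like lipid transfer protein, and AT5G38790, of unknown function, also had no more than 3 counts in erf13-3, with ratios of WT to erf13-3 counts of 64.4 (11.2 to 2580) and 39.1 (10.5 to 329). The other members of this class were AT1G34317, AT3G52520, AT5G57510, AT2G38600, AT3G50190, AT1G66440, AT3G52870 and AT1G70750, with mean ratios of 35S:ERF13:MYC to WT of 2.26, 3.33, 3.99, 3.23, 5.79, 2.41, 2.25 and 2.3. AT1G34317 overlaps AT1G34315 on the opposite strand over 410 bases, and reads of that stretch may be counted for either gene. AT1G34315 had means of 5.71 FPKM in 35S:ERF13:MYC, 0.61 FPKM in erf13-3 and 3.1 FPKM in WT. In all, 4 members had no count in erf13-3 and 10 had 1 to 3 counts over its 3 libraries, so their erf13-3 level is known only within wide limits.

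The members were spread over all chromosomes, with 24, 10, 22, 8 and 9 on chromosomes 1 to 5, and 8 of them lay in 5 pairs of direct neighbours. Among the pairs, AT3G16525 with AT3G16530 and PUP7 with AT4G18203 overlap on opposite strands, where reads of the shared stretch may be counted for either gene. AT2G05510 and GRP3 lie 9218 bases apart, with a gene annotated as an ncRNA between them. The genes next to the members are no members because their own values did not meet the rule, apart from PAD3, so their shares are a description with no test. Of 134 neighbours that were no members, 92 were tested. In 35S:ERF13:MYC 21 of these rose (22.8%, against 13.8% of all genes tested) and 18 fell (17.7% of all genes tested fell). In erf13-3 28 fell (30.4%, against 13.7%) and 8 rose (13.6% of all genes tested rose). Both a rise in 35S:ERF13:MYC and a fall in erf13-3 were called for 9 neighbours (9.78%, against 1.98%). Among the 83 tested neighbours that overlap no member it was 8 (9.64%). Of the 9, PAD3 met the rule and was left out by name. Some of the 9 are of the same family as the member beside them, as SNG1 is with SCPL13. How the counting split reads between close copies is not stated, and its part in these counts was not tested.

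RRS1, which is transcribed away from RPS4 and encodes its partner receptor, stood at 6.11 FPKM in 35S:ERF13:MYC, 2.95 FPKM in erf13-3 and 3.90 FPKM in WT. It rose by 0.55 on the log2 scale in 35S:ERF13:MYC (SE 0.13, adjusted p = 0.00687) and fell by 0.54 in erf13-3 (SE 0.13, adjusted p = 0.00945). AT1G53430, beside the receptor kinase gene AT1G53440, stood at 10.9 FPKM in 35S:ERF13:MYC, 1.53 FPKM in erf13-3 and 6.53 FPKM in WT, with log2 fold changes of 0.64 (adjusted p = 0.00868) and -2.22 (adjusted p = 3.93e-06). AT3G28940, beside AIG2, was abundant, at 288 FPKM in 35S:ERF13:MYC, 56.9 FPKM in erf13-3 and 147 FPKM in WT (0.86, adjusted p = 9.78e-05, and -1.51, adjusted p = 1.52e-06). SNG1, for the enzyme that makes sinapoylmalate and itself a serine carboxypeptidase-like protein, lies beside SCPL13 and stood at 70.4 FPKM in 35S:ERF13:MYC, 30.5 FPKM in erf13-3 and 34.1 FPKM in WT (0.95, adjusted p = 6.65e-06, and -0.29, adjusted p = 0.0241). The others of the 9 were AT1G34315, which overlaps the member AT1G34317, and AT1G66450, AT2G41800 and GSA1. These neighbours, TIR and PUP10 were singled out after their values were seen.

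The pathways of the genes left out by name behaved unevenly. Their lists still hold genes left out by name, among them RBOHB, LOX1, UGT73B5, KCS3 and CYP81F2. Of these, all but CYP81F2 met the rule, which fixed their part in the counts. The same holds for PAD3, of camalexin synthesis, wherever it is counted (log2 fold changes of 1.18 in 35S:ERF13:MYC and -2.22 in erf13-3). Over all genes tested, 13.8% rose and 17.7% fell in 35S:ERF13:MYC, 13.6% rose and 13.7% fell in erf13-3, and 1.98% had the members' pattern. Of 24 tested genes of indole glucosinolate and camalexin synthesis, 13 rose and 2 fell in 35S:ERF13:MYC, 4 rose and 8 fell in erf13-3, and 4 had the members' pattern. In the other fits 10 (without WT replicate 2) to 15 (limma on FPKM) rose in 35S:ERF13:MYC. The pattern was called for 3 (such as without WT replicate 1) to 6 (without erf13-3 replicate 3). Their median log2 fold change was 0.42 in 35S:ERF13:MYC and -0.05 in erf13-3. CYP81F2, for a step of indole glucosinolate modification, stood at 50.8 ± 5.33 FPKM in 35S:ERF13:MYC, 0.293 ± 0.0709 FPKM in erf13-3 and 0.687 ± 0.342 FPKM in WT, with a log2 fold change of 6.09 in 35S:ERF13:MYC (adjusted p = 1.43e-08). In erf13-3 it was -1.35 (adjusted p = 0.0352), not called in limma on log2(FPKM + 1) (0.0834) or without WT replicate 1 or 3 or erf13-3 replicate 1 or 2 (0.0531 to 0.14). Of 8 tested RBOH genes, for the NADPH oxidases that make reactive oxygen in defence, RBOHB and RBOHD had the pattern (log2 fold changes of 1.26 and 0.65 in 35S:ERF13:MYC, adjusted p = 2.49e-06 and 0.00704, and of -3.32 and -0.98 in erf13-3). The list as a whole had 2 higher and 5 lower in 35S:ERF13:MYC, but 3 higher and 1 lower in limma on FPKM, so its direction depends on the fit. There were 3 higher and 1 lower without WT replicate 2, 2 higher and 1 lower without 35S:ERF13:MYC replicate 2, and 2 higher and 2 lower without 35S:ERF13:MYC replicate 1. Of 24 tau class glutathione transferase genes 3 rose and 12 fell in 35S:ERF13:MYC, and only GSTU13 had the pattern (0.64, adjusted p = 0.000416, and -2.87 in erf13-3). There, 9 fell in limma on FPKM and 8 without WT replicate 2 or 35S:ERF13:MYC replicate 2 or 3. Of 15 defence-related WRKY genes 3 rose and 8 fell in 35S:ERF13:MYC, 4 rose and 2 fell in erf13-3, and none had the pattern. At a share of 1.98% over all genes tested, none among 15 genes is no contrast with the members. Lipoxygenase and jasmonate synthesis genes were 2 higher and 3 lower of 12 in 35S:ERF13:MYC and 5 higher and 2 lower in erf13-3, with 2 higher and 2 lower in 35S:ERF13:MYC in limma on log2(FPKM + 1), 3 and 2 in limma on log2(FPKM + 0.1), and 1 higher without WT replicate 2. Of 14 ketoacyl-CoA synthase genes 2 rose and 8 fell in 35S:ERF13:MYC, and of 8 UGT73 and UGT74 genes 3 rose and 4 fell.

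No member was in the list of group IX ERF genes, relatives of ERF13, or in the list of CHIB, OSM34 and PR4. Of 12 tested group IX ERF genes, ERF13 included, 1 rose (ERF13) and 3 fell in 35S:ERF13:MYC, 3 rose and 4 fell in erf13-3, and none had the members' pattern. As 1.98% of all genes tested had that pattern, its absence among 12 genes is near the overall share. There was 1 gene with that pattern in limma on log2(FPKM + 1), without WT replicate 3 or without erf13-3 replicate 3, and there were 2 in limma on log2(FPKM + 0.1). Limma on FPKM gave 3 higher and 3 lower in 35S:ERF13:MYC, and without WT replicate 3 there were 5 higher there and 7 higher in erf13-3. The 3 tested genes of a short list of defence genes known for GCC boxes, CHIB for a basic chitinase, OSM34 for an osmotin-like protein and PR4, all fell in erf13-3, with log2 fold changes of -4.64, -3.84 and -1.92. In 35S:ERF13:MYC their log2 fold changes were -0.49 (adjusted p = 0.24), -0.84 (adjusted p = 0.0577) and -0.87 (adjusted p = 0.0144). OSM34 was called lower there under the replicate block (0.0338) and without WT replicate 1 or 2 or erf13-3 replicate 3 (0.0248 to 0.0467), and PR4 was not called without 35S:ERF13:MYC replicate 2 (0.0653) or 3 (0.055). CHIB stood at 156 ± 21.7 FPKM in 35S:ERF13:MYC, 8.93 ± 2.93 FPKM in erf13-3 and 200 ± 100 FPKM in WT (SD, n = 3 each). WT replicate 3 stood apart for these genes: CHIB had 138, 146 and 315 FPKM in WT replicates 1 to 3, OSM34 150, 156 and 327 FPKM, and PR4 251, 260 and 431 FPKM. Of 10 phosphate starvation genes 10 fell in 35S:ERF13:MYC (6 without its replicate 2 or 3) and 7 fell in erf13-3 (3 under DESeq2, 4 in limma on FPKM, and 4 and 3 without erf13-3 replicates 1 and 2). PEPC1, SQD2 and PHT1;1 of this list were also highest in WT replicate 3 among the WT libraries, with 3.85, 4.1 and 43.4 FPKM for PEPC1, 32.2, 34.3 and 89.3 FPKM for SQD2 and 162, 165 and 337 FPKM for PHT1;1 in WT replicates 1 to 3. Without that library 10 fell in 35S:ERF13:MYC, and 2 rose and 6 fell in erf13-3.

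Markers of other cell types also differed between the groups. The 4 root cap markers (SMB, BRN1, BRN2 and CEL5) summed to 49.5 to 61.4 FPKM in 35S:ERF13:MYC, 19.9 to 24.9 FPKM in erf13-3 and 30.8 to 36.7 FPKM in WT, the same direction as the members. Of these 4, 2 rose in 35S:ERF13:MYC and 3 fell in erf13-3, CEL5 the most clearly (log2 fold changes of 0.80, adjusted p = 2.06e-05, and -0.94, adjusted p = 7.92e-06). Only 1 marker rose under the replicate block, under DESeq2 and without WT replicate 2 or 3, 35S:ERF13:MYC replicate 2 or 3, or erf13-3 replicate 1, and only 1 fell in erf13-3 without WT replicate 1 or 2 or erf13-3 replicate 1. The 16 green tissue markers went the other way, summing to 295 to 407 FPKM in 35S:ERF13:MYC, 1150 to 1330 FPKM in erf13-3 and 626 to 689 FPKM in WT, and 15 fell in 35S:ERF13:MYC and 14 rose in erf13-3. The 8 endodermis markers summed to 440 to 460 FPKM in 35S:ERF13:MYC, 1010 to 1170 FPKM in erf13-3 and 699 to 900 FPKM in WT, with 8 lower in 35S:ERF13:MYC and 4 higher in erf13-3 (2 without WT replicate 2, 7 without WT replicate 3). The 6 root hair markers summed to 183 to 200 FPKM in 35S:ERF13:MYC, where 6 fell, to 313 to 495 FPKM in erf13-3, where 1 rose and 1 fell, and to 265 to 319 FPKM in WT. The 6 xylem markers summed to 266 to 281 FPKM in 35S:ERF13:MYC, 266 to 278 FPKM in erf13-3 and 281 to 327 FPKM in WT, with 4 lower in 35S:ERF13:MYC (none in limma on FPKM) and 5 lower in erf13-3. Of these, fewer fell in 35S:ERF13:MYC without WT replicate 2 (1) or 3 (2) or its own replicate 2 or 3 (none), and 3 fell in erf13-3 without its replicate 1 or 2. The 3 phloem markers summed to 79.1 to 84.5 FPKM in 35S:ERF13:MYC, 70.0 to 76.3 FPKM in erf13-3 and 81.6 to 93.6 FPKM in WT, with 2 lower in erf13-3. No marker of these lists was at 0 in any group, and the defining root markers were thus detected in all groups. The part of these cell types in the members' values was not tested.

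Within 35S:ERF13:MYC, replicate 1 was the highest library in 50 of the 73 members, with a median deviation of 0.13 on the log2 scale from the group, against -0.08 and -0.06 for the others. Without this library 70 of the 73 still met the rule. The smallest number was 64, without WT replicate 3. The coefficient of variation of the 3 libraries had a median over the members of 11.3% in 35S:ERF13:MYC, 32.7% in erf13-3 and 22.1% in WT. At the limits of the rule, the lowest 35S:ERF13:MYC means inside were 1.203 (AT1G63350), 1.327 (AT3G47100) and 1.453 FPKM (AT3G04220), and those just outside 0.8867 (BOR5), 0.8533 (AT3G23360) and 0.8433 FPKM (CW9). The lowest ratios of 35S:ERF13:MYC to WT inside were 2.011 (AT1G08230), 2.067 (MYB50) and 2.072 (AT5G52450), and those just outside 1.983 (AT2G20950), 1.98 (AT4G25940) and 1.964 (GK-1). The highest ratios of erf13-3 to WT inside were 0.4989 (PRX37), 0.4979 (EXPA1) and 0.4919 (AT1G08230), and those just outside 0.5006 (PFK2), 0.5068 (AT1G53970) and 0.5076 (HMA2). Genes on either side of a limit thus differed by little.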

How the data were processed

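For each of the 9 libraries the authors deposited an expected count (an estimated count) per gene and its FPKM, as the file headers name them. A gene absent from a library's table was taken as 0, and no per-sample column was left unused (0). The authors also deposited for each line a comparison with WT, which holds log2 ratios of mean FPKM and a probability score. This deposited score is no p-value and was not used. Not given in the sources used here: the aligner, counter, genome build and strand setting. Of the expected counts, 88.7% to 89.9% per library were whole within 0.005.

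Expected counts were rounded and tested with edgeR 4.0.16 (quasi-likelihood fit, TMM, filterByExpr with a minimum count of 10, R 4.3.3) over all 9 libraries, with 1 mean per genotype and 6 residual degrees of freedom. TMM factors ran from 0.8946 to 1.065. Calls use an adjusted p (Benjamini-Hochberg) under 0.05 over all 19714 genes tested, and all adjusted p-values printed are from this test unless another tool is named. The script was tested on simulated counts. The SE was taken from F, as the absolute log2 fold change over its square root. FPKM values are given per library or as mean ± SD of 3 libraries. Floors of 3 counts per library and exact 95% intervals cover counting error only. Alternatives were DESeq2 1.42.0, its size factors, no filter, a replicate block, limma 3.58.1 on log2(FPKM + 1) and log2(FPKM + 0.1), and leaving out each library.

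The members, the 18 gene lists and the classes were chosen with earlier results of these data known. By the naming rule, every member with a symbol was named, the 25 with the largest ratio of 35S:ERF13:MYC to erf13-3 by library, and up to 3 called non-members of a list or family with the smallest p. Members known by locus only were described after their values were seen. Families were taken by symbol stem, and the stems RPS and TRM, which mix unrelated genes, were not described. Symbols, neighbours and sequences came from RefSeq (TAIR10.1). Of 2547 genes with coordinates to compare in a file, 1787 had the same start and end, and all 2547 had an end within 1000 bases. The replicate numbers were checked for pairing by the correlation of deviations from the group means. Same-numbered libraries had r of 0.158, 0.202 and 0.416 between erf13-3 and WT, -0.24, 0.0937 and -0.179 between 35S:ERF13:MYC and WT, and -0.0596, 0.133 and -0.119 between 35S:ERF13:MYC and erf13-3. Only between erf13-3 and WT did every same-numbered pair pass the limit of 0.1. Differently numbered libraries reached r of 0.245 (WT replicate 1 with erf13-3 replicate 2) and 0.286 (WT replicate 3 with 35S:ERF13:MYC replicate 1). These correlations therefore do not show that the numbers paired the libraries.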

Additional observations from a re-analysis of the deposited data

How the results depend on the processing

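With the replicate number as a block, 6523 genes were called in 35S:ERF13:MYC, 5494 in erf13-3 and 400 higher in the first and lower in the second, against 6209, 5381 and 391 without it, and 71 members had both calls either way. Among the genes named in the report the block added calls for FLS5 and OSM34 in 35S:ERF13:MYC, with adjusted p-values of 0.0438 and 0.0338. Leaving out 1 library in turn gave 3903 to 6725 genes called in 35S:ERF13:MYC (3903 without 35S:ERF13:MYC replicate 2), 4066 to 5441 in erf13-3, 283 to 379 with both calls and 72 to 79 genes meeting the rule. The rule took 31 genes at 3-fold both ways and 206 at 1.5-fold, where the cause is the stricter or looser limit itself. It took 78 genes (67 of them members) on FPKM divided by TMM factors and 74 (71) on counts scaled to library size alone. In limma on log2(FPKM + 1), all genes had a median log2 fold change of 0.11 in 35S:ERF13:MYC and 0.13 in erf13-3, against 0.02 in each. Over the 15 other fits, 66 to 71 members had both calls and 7 to 11 neighbours did. None of these values reversed. Of 2160 values of members under alternatives 174 moved by more than the SD or SE used, and of 3298 values of non-members picked by the naming rule from lists and families, not all of which the report names, 124 lost and 47 gained the call. Depth limits the erf13-3 levels of the 14 members with 0 to 3 counts there.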
